A study of Mus musculus with 2 samples.

Results

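Chemokines are small secreted proteins that direct the migration of leukocytes, and they are named CC, CXC, C or CX3C after the spacing of their conserved cysteines. They bind to G protein-coupled receptors on the migrating cells, whereas atypical receptors take them up without the usual signalling and so lower their local level. In the adipose tissue of obese mice, the ligands of the receptor CCR2 are known for the recruitment of monocytes, which become adipose tissue macrophages.
Expression of these genes was measured in perigonadal white adipose tissue (WAT) of PeriA Tg mice and of WT mice, with 1 Affymetrix mouse genome array for each genotype. The Tg mice were female, heterozygous and 30 weeks old, and carried human perilipin A (PeriA), a protein on the surface of lipid droplets, under the control of the aP2 promoter/enhancer, which is active in adipocytes. The WT mice were their female littermates without the transgene at the same age. Both groups were of C57BL/6 background, were fed a high-fat diet (HFD) and were fasted overnight before the tissue was taken. Each array received RNA pooled from 3 mice, so that there were no replicates, the spread between mice is unknown and none of the differences below was tested.

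The genes were chosen by their symbols, namely those that start with Ccl, Cxcl, Ccr, Cxcr, Ccrl or Xcr and a number, together with *Cx3cl1*, *Cx3cr1*, *Xcl1*, *Pf4*, *Ppbp* and *Ackr1* to *Ackr4*. In all, 89 of the 34945 probe sets with a single symbol carried such a symbol, and these represented 57 of 18193 genes, 35 of them chemokines and 22 receptors. *Ccl27a* and *Ccr1l1*, whose symbols go on after the number, were counted among them. Each gene was read from the probe set with its highest mean log2 signal. A gene passed the filter on low signals when this mean was at least that of a signal of 98.2, the median over all probe sets of both arrays, and 33 of the 57 genes passed, 22 chemokines and 11 receptors. The signal is the brightness of a probe set on a linear scale as deposited by the authors, and the signal log ratio is the log2 of the Tg signal over the WT signal. A signal log ratio over 0.3 or under -0.3 was the threshold of the study's methods. It is smaller than the pooled SD of 0.34 between passing probe sets of the same gene, which describes readings of the same RNA pools in 4956 genes and covers neither mice nor hybridisations.
The tissue had the markers of WAT on both arrays. *Adipoq*, which encodes adiponectin, had a signal of 43803 in Tg and 41052 in WT. The 9 adipocyte markers on the arrays all passed the filter, with a median signal log ratio of 0.04. They were not all alike. *Lep*, which encodes leptin, had 13305 in Tg and 20770 in WT (-0.64), and *Lipe* had 8123 in Tg and 5629 in WT (0.53). The shares were 11.1% under -0.3 and 11.1% over 0.3, against 15.7% and 15.9% of all genes that passed. The median signal was 95.4 on the Tg array and 101.1 on the WT array. The arrays also differed in their bacterial spike-in controls. Those labelled with the sample, the poly-A controls, had a lower signal log ratio on the 5' probe set than on the 3' probe set in all 8 pairs, with a median difference of -0.55. These pairs are repeated readings of the dap, lys, phe and thr controls. Those added at hybridisation had a median difference of -0.01. A further control pair, TrpnX, was counted in neither kind and went the other way, with a difference of 0.44. No control for a mouse transcript was among the pairs compared. The part of the poly-A difference in the values below was not tested.

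Chemokine and receptor genes lay on the lower side in Tg WAT. Of the 33 genes above the filter, 12 had a signal log ratio under -0.3 and 2 were over 0.3. Under -0.3 were the chemokines *Ccl2*, *Ccl7*, *Ccl9*, *Ccl4*, *Cxcl10*, *Cxcl14*, *Ccl8* and *Cxcl16* and the receptors *Ccr1*, *Ackr1*, *Cxcr4* and *Ccr2*, and over 0.3 were *Cxcr5* and *Ccl27a*. The share under -0.3 was 36.4%, against 15.7% of all 11170 genes that passed the filter, and the share over 0.3 was 6.06%, against 15.9%. Their median signal log ratio was -0.15, whereas that of all genes that passed was 0.02. A lower level of these RNAs can come from fewer cells of a type or from less RNA per cell, and these cannot be told apart in whole tissue.
The share under -0.3 was above that of all genes among bright genes and, by a smaller gap, among dim genes. Of 13 genes with a mean signal of at least 470.5, 5 were under -0.3 and none was over 0.3, against 10.6% and 13.5% of all genes at such signals. Of 20 dimmer genes that passed, 7 were under -0.3 (35%) and 2 were over 0.3 (10%), against 23.9% and 19.8%. The gap among the dimmer genes rests on few genes. Below -1 were *Ccl2* and *Ccl7* alone among the genes that passed, where 1.18% of all genes lay, and none of them was over 1, against 0.573% of all genes. With each array centred on its own median signal, 5 genes were over 0.3 and 10 were under -0.3, with *Ccl8* and *Cxcl16* no longer past it, and the split of all genes past the threshold shifted to 2724 over and 1311 under, against 1778 over and 1753 under from the signals as deposited.

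**Figure D1:**
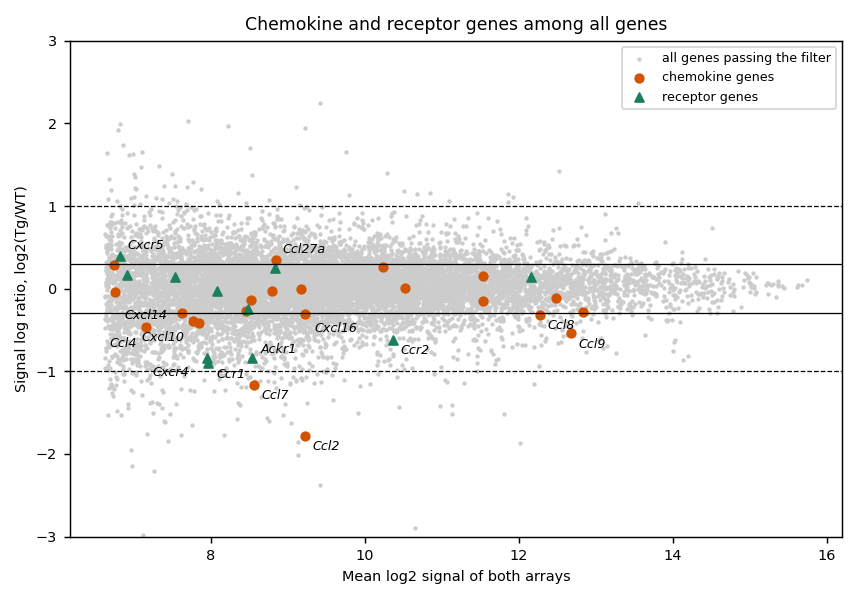
Signal log ratio of Tg over WT (log2) plotted against the log2 signal averaged over the arrays, for 22 chemokine genes and 11 receptor genes that passed the filter, with all 11170 genes that passed in grey. Solid lines stand at 0.3 and -0.3 and dashed lines at 1 and -1, genes past 0.3 are named, and 5 grey genes lie beyond the vertical axis. *Ccl2* and *Ccl7* lie below -1, and most of the other chemokine genes lie between -0.6 and 0.3.

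*Ccl2* and *Ccl7*, CC chemokines that bind CCR2, had the lowest values among the genes that passed. *Ccl2*, which encodes the monocyte chemoattractant MCP-1 and is among the adipokines that the study lists, had a signal of 322.4 in Tg and 1109 in WT. This is a signal log ratio of -1.78, or 3.44-fold more in WT. *Ccl7*, another monocyte chemoattractant, had 252.7 in Tg and 565.3 in WT (-1.16). Both genes have a single probe set, so that no second reading of the pools bears on their values. *Ccl12*, the mouse monocyte chemoattractant MCP-5, had 319.6 in Tg and 385.3 in WT, a signal log ratio of -0.27 that did not reach the threshold. *Ccl8*, whose mouse product acts through CCR8, had 4436 in Tg and 5530 in WT, or -0.32.
These genes are neighbours on chromosome 11, in the order *Ccl2*, *Ccl7*, *Ccl11*, *Ccl12*, *Ccl8* and *Ccl1* in RefSeq's annotation of GRCm38.p6, and their values were not alike. *Ccl11*, which encodes eotaxin and attracts eosinophils, lies between *Ccl7* and *Ccl12* and had 1472 in Tg and 1459 in WT, a signal log ratio of 0.01. *Ccl1*, at the end of the group, was under the filter. *Ccl24*, the other eotaxin on the arrays, had 439.8 in Tg and 449.3 in WT (-0.03), and *Ccr3*, the eotaxin receptor, was under the filter with 2.4 in Tg and 44.6 in WT.

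*Ccr2* itself, the receptor of CCL2, CCL7 and CCL12 on monocytes, was lower in Tg on all of its probe sets. The brightest had 1066 in Tg and 1638 in WT, a signal log ratio of -0.62. The other 2 that passed had 200.0 in Tg and 724.1 in WT (-1.86), and 238.4 in Tg and 305.5 in WT (-0.36). The fourth, under the filter, had 65.0 in Tg and 132.6 in WT (-1.03). The direction was thus shared, whereas the size ranged over 1.50 on the log2 scale among the probe sets that passed, the widest range of the 10 chemokine and receptor genes with more than 1 passing probe set.

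A further set of lower CC chemokines belongs to a second group on chromosome 11, in the order *Ccl5*, *Ccl9*, *Ccl6*, *Ccl3* and *Ccl4*. *Ccl9* and *Ccl6* encode chemokines of rodent myeloid cells that act through CCR1. *Ccl9* had 5433 in Tg and 7903 in WT on its brightest probe set (-0.54), and 2377 in Tg and 4639 in WT on the other (-0.96). *Ccl6* had 6587 in Tg and 8041 in WT (-0.29), and its other probe set had 1869 in Tg and 2584 in WT (-0.47), so that the call under -0.3 depends on the probe set. *Ccl4*, the macrophage inflammatory protein MIP-1β, was dim, with 121.1 in Tg and 166.9 in WT (-0.46). Its neighbour *Ccl3* had 49.2 in Tg and 85.4 in WT and was under the filter. *Ccl5*, a chemokine of T cells and macrophages better known as RANTES, stood apart from its neighbours with 576.0 in Tg and 579.8 in WT, a signal log ratio of -0.01.
*Ccr1*, a receptor of these inflammatory chemokines on monocytes and neutrophils, had 181.8 in Tg and 339.8 in WT on its brightest probe set (-0.90). Its other probe set was far under the filter and went the other way, with 32.4 in Tg and 3.1 in WT. With both signals raised to a floor of 56.9, that probe set has no difference left.

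**Figure D2:**
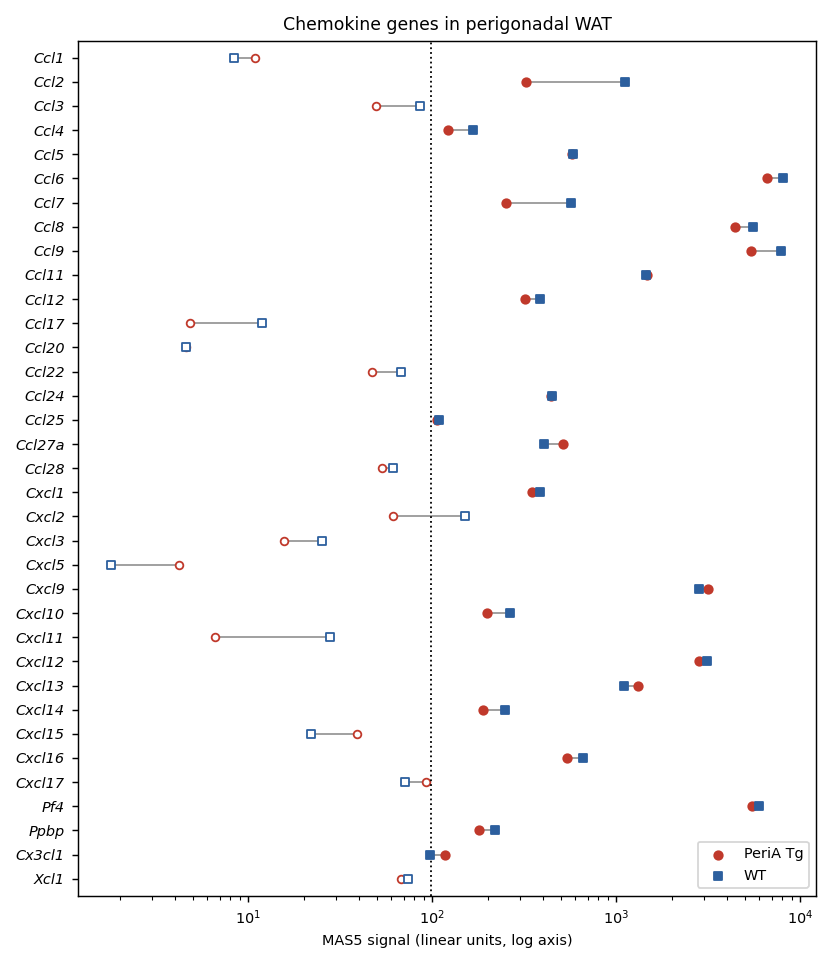
Signals of 35 chemokine genes on the Tg array (circles) and the WT array (squares), 1 array per genotype, on a logarithmic axis, with a line joining the signals of each gene. Open symbols mark the 13 genes under the filter, and the dotted line is the signal of 98.2 that sets it. *Ccl2* and *Ccl7* have the widest gaps among genes that passed, whereas *Ccl5*, *Ccl11* and *Ccl24* have nearly the same signal on both arrays.

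The remaining CC chemokines that passed were *Ccl25* and *Ccl27a*. *Ccl25*, a chemokine of thymus and gut, had 106.1 in Tg and 108.8 in WT, close to the filter. *Ccl27a*, which encodes a skin chemokine that binds CCR10, had 516.7 in Tg and 406.2 in WT (0.35). Its probe set is of a kind that can hybridise to similar transcripts, and 2 more probe sets annotated to *Ccl27a* together with other genes had signal log ratios of 0.32 and 0.33. Rounding to 1 decimal, as a printed signal log ratio would be, takes *Ccl27a* to 0.3 and off the count. The probe sets annotated to several *Ccl19* or *Ccl21* copies name no single gene and were left out of all counts. The one for *Ccl19* copies, a lymph node chemokine that binds CCR7, had 290.1 in Tg and 188.4 in WT, a signal log ratio of 0.62.

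Of 15 CXC chemokines, 9 passed the filter, with 3 under -0.3, 0 over 0.3 and a median signal log ratio of -0.15. The shares were 33.3% under and 0% over, against 15.7% and 15.9% of all genes that passed. The chemokines that attract neutrophils through CXCR2 were dim. *Cxcl1*, also known as KC, had 350.0 in Tg and 386.3 in WT on its brightest probe set (-0.14), and its other 2 probe sets had -0.39 and -0.52, all on the lower side. *Cxcl2* had 61.3 in Tg and 150.4 in WT, a signal log ratio of -1.29, but its mean signal was under the filter. *Cxcl3* and *Cxcl5* had signals of at most 25.2 on either array. *Ppbp* and *Pf4*, which encode the platelet chemokines platelet basic protein and platelet factor 4, had -0.29 and -0.11. The signal of *Pf4*, which macrophages express too, was 5494 in Tg and 5946 in WT. *Cxcr2*, the receptor of the neutrophil chemokines, was under the filter with 19.4 in Tg and 23.6 in WT.
The interferon-induced chemokines, which attract T cells through CXCR3, lay on both sides of 0. *Cxcl9* had 3141 in Tg and 2824 in WT (0.15), and 663.8 in Tg and 583.5 in WT on its other probe set (0.19). *Cxcl10* had 199.1 in Tg and 266.1 in WT (-0.42) on its only one. *Cxcl11* was under the filter on both of its probe sets. *Cxcr3*, their receptor on activated T cells, had 327.1 in Tg and 388.4 in WT (-0.25). Among 16 other interferon-induced genes that passed, the median was 0.06, with 4 over 0.3 and 0 under -0.3. The shares were 25% and 0%, against 15.9% and 15.7% of all genes that passed. The 4 over 0.3 were *Usp18* at 0.42, *Irf1* and *Igtp* at 0.34 each, and *Gbp3* at 0.33.

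The promoters of *Cxcl1* and *Cxcl2* and of *Cxcl9* and *Cxcl10*, pairs of related chemokines on chromosome 5, are shown because transcription of these genes is known to be induced by NF-κB and by interferons. Each line gives the 250 bases before the start of the gene, 5′ to 3′ on the gene's strand, from RefSeq (GRCm38.p6), and capitals mark matches on either strand to a κB motif, GGANTTTCC, or to the core of the binding motif of interferon regulatory factors (IRF), AANNGAAA. The positions are chr5:90890995-90891244 on the + strand for *Cxcl1*, chr5:90903649-90903898 on the + strand for *Cxcl2*, chr5:92328080-92328329 on the - strand for *Cxcl9* and chr5:92348890-92349139 on the - strand for *Cxcl10*.
Cxcl1: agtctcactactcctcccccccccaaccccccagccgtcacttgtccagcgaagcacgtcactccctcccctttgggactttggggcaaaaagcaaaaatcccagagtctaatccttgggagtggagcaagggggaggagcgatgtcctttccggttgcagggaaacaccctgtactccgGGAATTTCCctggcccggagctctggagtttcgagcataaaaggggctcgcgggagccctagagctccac
Cxcl2: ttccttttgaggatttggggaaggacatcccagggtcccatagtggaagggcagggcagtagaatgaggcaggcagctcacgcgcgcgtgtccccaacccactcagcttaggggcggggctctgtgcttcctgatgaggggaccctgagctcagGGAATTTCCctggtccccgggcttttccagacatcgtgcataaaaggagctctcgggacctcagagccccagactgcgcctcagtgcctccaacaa
Cxcl9: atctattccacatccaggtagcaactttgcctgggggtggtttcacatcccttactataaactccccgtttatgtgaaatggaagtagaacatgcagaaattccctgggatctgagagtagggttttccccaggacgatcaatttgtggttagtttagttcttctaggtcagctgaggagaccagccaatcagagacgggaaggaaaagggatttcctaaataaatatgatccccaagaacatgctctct
Cxcl10: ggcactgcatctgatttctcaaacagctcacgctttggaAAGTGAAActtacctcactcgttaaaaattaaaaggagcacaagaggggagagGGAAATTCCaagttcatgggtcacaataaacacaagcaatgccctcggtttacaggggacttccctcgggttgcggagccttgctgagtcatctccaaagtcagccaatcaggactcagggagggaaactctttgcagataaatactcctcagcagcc
*Cxcl1* and *Cxcl2* share a κB match with the same letters, and *Cxcl10* holds a match to each motif, which do not overlap. Of the 57 genes, 44 had a promoter sequence available, and *Ccl2*, *Ccl7* and *Ccl11* did not. The κB motif was in 6 of the 44, the others being *Cxcl3*, *Ccr3* and *Ccrl2*, against 1.07% of 32851 promoter windows of all genes. The IRF motif was in 9 of the 44, against 21.3% of all windows, a share near the background. The member counts are of genes and the background shares are of windows, so they are not strictly alike. *Cxcl9* holds neither of these letter strings in this window. Other forms of the κB and IRF motifs were not searched for, so that letters in lower case can still hold them.

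Among the CXC chemokines of resting tissue, *Cxcl14* and *Cxcl16* were past the threshold, and *Cxcl12* and *Cxcl13* were not. *Cxcl12*, which retains progenitor cells and lymphocytes in their niches, had 2810 in Tg and 3108 in WT on its brightest probe set (-0.15) and 1932 in Tg and 1582 in WT on the other that passed (0.29), so that its direction depends on the probe set. *Cxcl13*, which guides B cells into follicles, had 1316 in Tg and 1099 in WT (0.26), and 714.6 in Tg and 626.1 in WT (0.19) on its other probe set. Both readings were higher in Tg, and neither reached the threshold. *Cxcl14*, a chemokine that brown adipocytes and other cells secrete, had 189.4 in Tg and 248.9 in WT (-0.39), and its other probe set had -0.47. *Cxcl16*, a chemokine that is made as a membrane protein and takes up lipoproteins in macrophages, had 537.4 in Tg and 663.6 in WT (-0.30), just past the threshold. Its other probe set had 566.2 in Tg and 555.1 in WT (0.03).
*Cx3cl1*, or fractalkine, the membrane-bound CX3C chemokine, was near the filter with 117.7 in Tg and 96.9 in WT (0.28), and its other 3 probe sets were under it. *Cx3cr1*, its receptor on monocytes and some macrophages, had 33.1 in Tg and 166.3 in WT. Its mean signal was under the filter, and with the Tg signal raised to the floor of 56.9 its signal log ratio was -1.55.

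**Figure D3:**
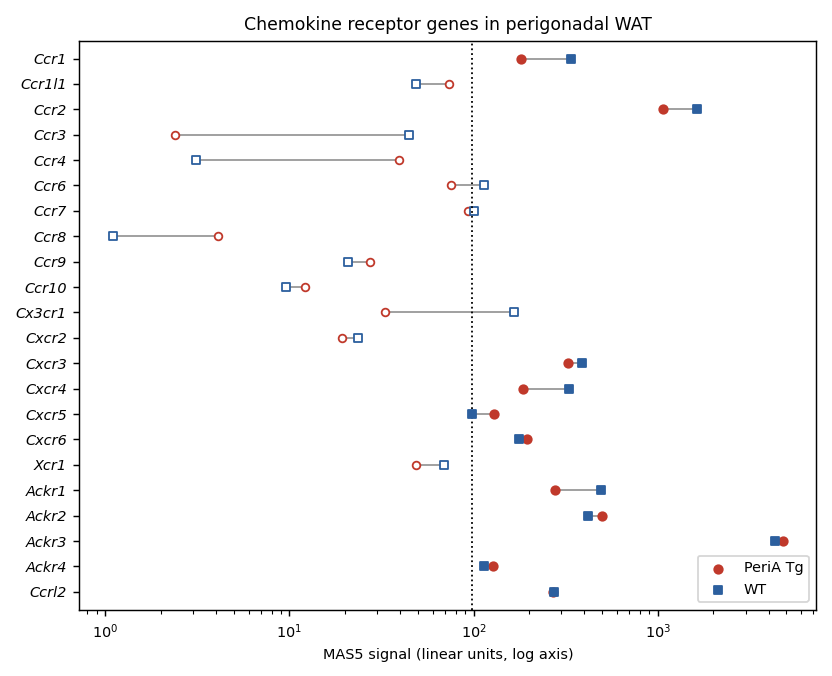
Signals of 22 receptor genes, the 5 atypical receptors at the bottom, on the Tg array (circles) and the WT array (squares), 1 array per genotype, on a logarithmic axis. Open symbols mark the 11 genes under the filter, and the dotted line is the signal of 98.2 that sets it. *Ccr1*, *Ccr2*, *Cxcr4* and *Ackr1* are lower on the Tg array, and the wide gaps of *Ccr3*, *Ccr4* and *Cx3cr1* rest on signals near or below the filter.

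Of 22 receptor genes, 11 passed the filter, 4 were under -0.3 and 1 was over 0.3. That is 36.4% and 9.09%, against 15.7% and 15.9% of all genes that passed. The median of the 11 was -0.03, and it was 0.06 after median centring of the arrays. Its sign thus did not hold under every scaling. The 5 atypical receptors had a median of 0.14, and the 6 other receptors had -0.43. *Cxcr4*, the receptor of CXCL12 on leukocytes and progenitor cells, had 184.7 in Tg and 329.4 in WT (-0.83). *Cxcr5*, the CXCL13 receptor of B cells and follicular T cells, had 129.2 in Tg and 98.3 in WT (0.39), with the WT signal at the filter. *Cxcr6*, the CXCL16 receptor of T and NKT cells, had 195.3 in Tg and 176.8 in WT (0.14). *Ccr4*, *Ccr6*, *Ccr7*, *Ccr8*, *Ccr9*, *Ccr10*, *Ccr1l1* and *Xcr1*, most of them receptors of lymphocytes and dendritic cells, were under the filter.
The 5 atypical receptors all passed, and they differed in direction. *Ackr1*, the Duffy antigen of venules and red cells, which binds many inflammatory chemokines, had 276.0 in Tg and 493.7 in WT (-0.84) on its only probe set. *Ackr2*, a scavenger of inflammatory CC chemokines, had 496.1 in Tg and 416.4 in WT (0.25), and both of its dimmer probe sets, under the filter, were higher in Tg too. *Ackr3*, a scavenger of CXCL12, had 4781 in Tg and 4352 in WT (0.14). *Ackr4*, a scavenger of CCL19, CCL21 and CCL25, had 127.8 in Tg and 113.6 in WT (0.17), and 114.0 in Tg and 115.0 in WT (-0.01) on its other probe set. *Ccrl2*, which binds chemerin, had 268.7 in Tg and 273.9 in WT (-0.03).

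Side by side, ligands and receptors of a pair had like directions in some cases and not in others. *Ccr2* (-0.62) was lower together with *Ccl2*, *Ccl7* and *Ccl12*, and *Ccr1* (-0.90) together with *Ccl6*, *Ccl7* and *Ccl9*, while *Ccl5*, which also binds CCR1, was at -0.01. *Cxcr5* (0.39) and *Cxcl13* (0.26) were both higher in Tg. *Cxcr4* was at -0.83 and its ligand *Cxcl12* at -0.15. *Cxcr6* was at 0.14, whereas *Cxcl16* was at -0.30. No pair was tested, and the values describe these arrays only.

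**Figure D4:**
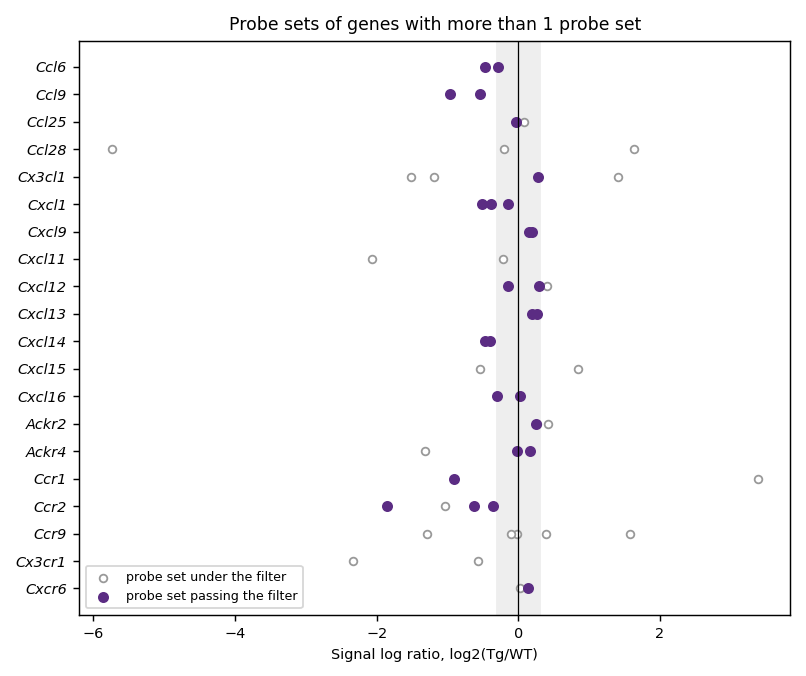
Signal log ratio of Tg over WT (log2) for every probe set of the chemokine and receptor genes that have more than 1, one point per probe set, with filled points for those that passed the filter and the grey band from -0.3 to 0.3. The passing probe sets of *Ccl6*, *Ccl9*, *Cxcl1*, *Cxcl14* and *Ccr2* all lie below 0, those of *Cxcl9* and *Cxcl13* above 0, and the widest disagreements come from probe sets under the filter.

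Counted by probe set, 45 of 89 passed the filter, of which 19 were under -0.3 and 2 were over 0.3, against 20% and 16.1% of all 19353 probe sets with a single symbol that passed. Of the 10 genes with more than 1 passing probe set, 7 had them all on the same side of 0, and *Ackr4*, *Cxcl12* and *Cxcl16* did not. The pooled SD between probe sets of these 10 genes was 0.37. The 24 genes under the filter, 13 chemokines and 11 receptors, had signals from 1.1 to 166.3, and 4 of them, *Cxcl2*, *Ccr6*, *Ccr7* and *Cx3cr1*, exceeded 98.2 on the WT array alone. Over all 57 genes without the filter, 22 were under -0.3 and 11 were over 0.3, against 25% and 24.6% of all 18193 genes, and the median was again -0.15.

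The signalling genes downstream of chemokine receptors were lower in part. Of 40 listed, 37 were on the arrays and 36 passed, with 10 under -0.3, 1 over 0.3 and a median of -0.14. These shares were 27.8% and 2.78%, against 15.7% and 15.9% of all genes that passed. The lowest were *Rgs1*, an inhibitor of G protein signalling in leukocytes, with 359.8 in Tg and 677.3 in WT (-0.91), and the myeloid kinase *Fgr*, with 108.1 in Tg and 202.9 in WT (-0.91). *Dock2*, which activates Rac in migrating leukocytes, had -0.79, and *Pik3r5*, a regulatory subunit of the leukocyte PI 3-kinase, had -0.75. *Gnai1*, a G protein subunit found in many cell types, had 17268 in Tg and 14859 in WT (0.22), and the gene over 0.3 was the kinase *Src* at 0.42.
Of 16 cytokines that induce chemokines or hold them down, 5 passed. *Tgfb1* had 306.8 in Tg and 810.1 in WT (-1.40), *Il1b* had 92.0 in Tg and 120.6 in WT (-0.39), and *Il18* had 1385 in Tg and 1033 in WT (0.42). *Ltb* and *Csf1* had -0.28 and 0.04. *Tnf*, *Ifng* and *Il6*, classical inducers of chemokines, were among the 11 under the filter. Of 11 genes of chemokine processing and transport, 3 were under -0.3 and 1 was over 0.3. That is 27.3% and 9.09%, against 15.7% and 15.9% of all genes that passed. The protease *Mmp12*, which cleaves chemokines, had -1.10, and the protease *Mmp14* had -0.51. The syndecans, whose sugar chains bind chemokines, had 397.4 in Tg and 838.1 in WT for *Sdc1* (-1.08) and 2139 in Tg and 1525 in WT for *Sdc4* (0.49).

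Markers of the cells that make or bear chemokines differed by cell type, with medians under -0.3 for lipid-associated macrophages and several leukocyte lists and near or above 0 for stromal and mast cell lists, and their part in the values above was not tested. Of 16 macrophage markers, 15 passed the filter, 6 were under -0.3 and none was over 0.3. The shares were 40% and 0%, against 15.7% and 15.9% of all genes that passed. The macrophage markers had a median of -0.26 and summed signals of 57189 in Tg and 69878 in WT. *Itgam* and *Cd68*, which mark myeloid cells and their lysosomes, had -1.22 and -1.13, whereas *Mrc1*, the mannose receptor of resident macrophages, had 4597 in Tg and 4610 in WT (-0.0039). *Lyz2*, the lysozyme gene of myeloid cells, had 19118 in Tg and 22571 in WT (-0.24). All 8 lipid-associated macrophage markers on the arrays were under -0.3, with a median of -1.22 and summed signals of 19316 in Tg and 37180 in WT, from *Lgals3* at 12679 in Tg and 21460 in WT (-0.76) down to *Atp6v0d2* at 301.0 in Tg and 1566 in WT (-2.38).
Neutrophil markers had a median of -0.79 over the 3 that passed, and they were not alike. *S100a8* had 847.8 in Tg and 2294 in WT (-1.44), *S100a9* had -0.79 and *Elane* had -0.06. Under the filter, *Csf3r* was higher in Tg, with 109.1 against 68.4 in WT, and *Mpo* and *Camp* were lower. Dendritic cell markers had a median of -0.68 over 3, with *Batf3* at 96.7 in Tg and 295.7 in WT. The brightest of them, *Cd209a*, had 631.7 in Tg and 759.1 in WT (-0.27). Of those under the filter, *Itgae* and *Siglech* were higher in Tg and *Flt3* was lower. T cell markers had a median of -0.30 over the 4 that passed, NK cell markers -0.39 over 3 and B cell markers -0.09 over 6. Endothelial markers, among the cells that express *Ackr1*, had a median of -0.06 over 8. Under -0.3 was 1 of them, *Tie1* at -0.72, or 12.5%, against 15.7% of all genes that passed. Mast cell markers had a median of 0.31 over 6, mesothelial markers 0.22 over 7 and fibroblast markers -0.01 over 8.

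**Figure D5:**
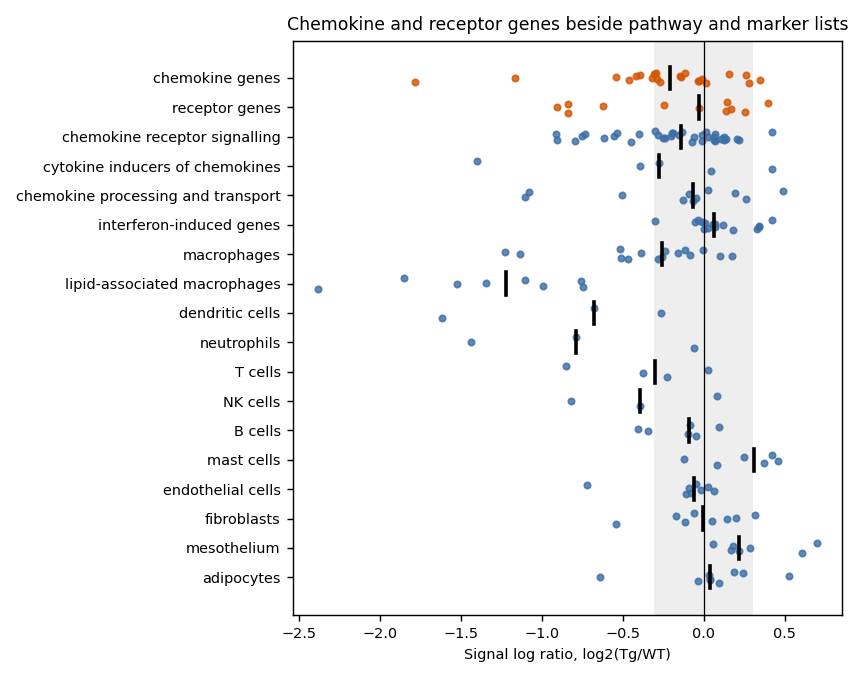
Signal log ratio of Tg over WT (log2) for the chemokine and receptor genes that passed the filter (orange) and of the passing members of pathway lists and cell type marker lists (blue), one point per gene, 1 array per genotype. Black bars show the median of each list, the grey band runs from -0.3 to 0.3, and points are spread vertically only to keep them apart. The lipid-associated macrophage markers lie below -0.3 throughout, with a median of -1.22, beside -0.21 for chemokine genes and -0.03 for receptor genes.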

How the data were processed

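The deposited values are intensity signals, which the authors computed in GeneChip Operating Software (ver1.4). MAS5, named in the submitters' processing notes, is a method that summarises the probes of a set as 1 linear signal and applies a single scaling factor to an array. The mean of each array without its lowest and highest 2% was 500.0. The authors went on with probe sets called Present. Detection calls were not used here, and a filter at 98.2, the median of all signals, took their place.
From the signals, the signal log ratio was computed without further normalization or pseudocount. The filter used the mean log2 signal of both arrays, since a filter on the higher signal favours genes that differ. The 64 control probe sets were left out. Gene names came from the platform annotation, and the 932 probe sets with several symbols and the 9160 without an entry named no gene. With 1 array per group there was no test, and gene lists were described by counts and medians beside those of all genes. The number of arrays limits the precision.
The genes, lists and promoters were chosen with earlier results of these data known. Named were genes past 0.3 or -0.3, the 10 brightest chemokine and receptor genes and *Ccl2*. Genes whose passing probe sets lay past the threshold on both sides were to be named too (there were 0). For each other list, the rule was up to 4 members with the largest values and its brightest. It was not followed for every list, and some lists have no named member. Other names, such as *Cx3cr1* and *Cxcl2*, were chosen to account for every gene or after their values were seen.
Alternative settings included quantile normalization, median centring, loess with a span of 0.3, a pseudocount of 25.1 and a floor of 56.9 (the 25th and 40th percentiles of all signals), no filter, a filter on the higher signal, a filter at 470.5 (75th percentile), the median over probe sets, probe sets without a suffix for shared transcripts, the second-brightest probe set, and rounding to 1 decimal. The code for the steps from probe set to gene was checked on simulated data, in which all probe sets of a gene shared the same difference. That check does not bear on the choice of probe set in these data. Calculations used pandas 2.3.3, numpy 2.4.6, statsmodels 0.14.6 and scipy 1.17.1 in Python 3.11.15, and plots matplotlib 3.10.9. Scanner files and the places of probes along transcripts were not analysed here.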

Additional observations from a re-analysis of the deposited data

Results flagged for a closer look

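A probe set outside all counts, because it is annotated to *Ccl21a*, *Ccl21b*, *Ccl21c* and other copies together, had a signal of 691.3 in Tg and 24.7 in WT, a signal log ratio of 4.81. With the WT signal raised to the floor of 56.9, it was 12.1-fold higher in Tg, a signal log ratio of 3.60. CCL21 is a chemokine of lymph nodes and lymphatic vessels that guides T cells and dendritic cells through CCR7. Which of the copies was measured cannot be read from this probe set. *Ccr7* had 92.9 in Tg and 101.1 in WT, the probe set for *Ccl19* copies had 0.62, and the medians of T cell and B cell markers were -0.30 and -0.09. The part of these cells in the value was not tested, and no second probe set for *Ccl21* was analysed here.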

How the results depend on the processing

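The count of chemokine and receptor genes over 0.3, which was 2 of 33, was 5 after median centring, 11 of 57 without the filter, 0 of 13 with the stricter filter, 1 of 28 for probe sets without a suffix, 0 of 10 for second-brightest probe sets and 1 after rounding. The count under -0.3, which was 12, was 22 without the filter, 5 with the stricter filter and 5 for second-brightest probe sets, and it changed by less than 1.5 times under the other alternatives. The median of all these genes stayed between -0.28 and -0.06 and that of chemokine genes between -0.29 and -0.12 in every alternative. The median of receptor genes ranged up to 0.06 and was -0.93 over the 2 receptors with a second-brightest probe set that passed. Of 26 named genes, *Ccr1* and *Cxcl16*, both under -0.3, changed sign, as did *Cxcl12*, *Ackr4* and *Ccrl2*, which were within the threshold. *Ccr1* had 1.24 as the median of its probe sets and 3.39 on the second-brightest, which is under the filter, and *Cxcl16* had 0.029 on the second-brightest. *Cxcl12* ranged from -0.16 to 0.29, *Ackr4* from -0.01 to 0.25 and *Ccrl2* from -0.03 to 0.06. Over all genes, the counts over and under the threshold, 1778 and 1753, were 2724 and 1311 after median centring, 4468 and 4548 without the filter, 929 and 727 with the stricter filter, and 815 and 1170 for second-brightest probe sets. No paired analysis was possible because each genotype has 1 array. Ratios of genes with signals near 98.2, such as *Cxcr5*, *Ccl4* and *Cx3cl1*, rest on dim probe sets.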
